A study of Mus musculus with 24 samples.

Results

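Mitosis and spindle genes are described here in 24 single mouse BFU-E, the burst-forming units-erythroid, which are sorted progenitors at the start of the red cell lineage. The set holds 40 named genes. They were found as the rows of the count table whose gene symbol is on the list, and all 40 matched, out of 49585 rows. The cells form 1 group with no second condition. They came from the fetal liver of C57/Bl6J mice at embryonic day 14.5, after magnetic depletion of lineage-positive cells. The antibodies for that step were against the T cell protein CD3e, CD45R of B cells, the myeloid proteins Ly-6G, CD11b and CD16/32, Ter119 of late red cells, the stem cell antigen Sca-1 and CD41. Staining for CD117, CD71 and CD24 then guided a sort of single cells into plate wells for Smart-seq2, which reverse transcribes whole polyadenylated RNAs and amplifies the cDNA by PCR. No label names an embryo or gives the sort gates. All values therefore describe these 24 cells of 1 sample, with no p-value, and any SD is a spread over cells.

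Cyclin B bound to CDK1 drives a cell into mitosis, and the Polo and Aurora kinases then build the spindle and prepare the chromosomes. Kinesin motors and spindle proteins move the chromosomes, which are held at their kinetochores, while the spindle checkpoint keeps the anaphase-promoting complex (APC/C) idle until every kinetochore is attached. APC/C with its activator CDC20 then marks cyclin B and securin for destruction, and the cell divides at the midzone. Most mitotic genes are transcribed in G2 and mitosis, through promoters that commonly hold a CHR element and CCAAT boxes. Early erythroid progenitors divide often, so mitotic transcripts are a usual feature of the fetal liver.

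Total counts ran from 876983 to 2155010 per cell, with 4767 to 7349 genes at 5 counts or more, which is the level called detected throughout. A count of 0 allows up to 3 counts, or 1.39 to 3.42 CPM (counts scaled to the total of the cell) depending on the cell, and such limits cover counting error only. Of 10 erythroid progenitor markers, 6 were detected in at least 12 cells, with Kit, the CD117 antigen, in 24 cells and the erythroid regulators Gata1 and Klf1 in 20 each. Klf1 was under 10 CPM in 5 libraries, those labelled BFU-E 1, 9, 19, 23 and 24, and Gata1 was at 0 in cells 19 and 24. Cell 19 had 5 of 10 lymphoid markers detected and a lymphoid sum of 891 CPM, against a median of 0 over all 24 cells. Cell 10 had 8 of 10 hepatocyte markers and the myeloid sum was 9234 CPM in cell 1, 2708 CPM in cell 23 and 973 CPM in cell 9, against a median of 20.1. Several results, but not all, are also given without the 5 cells of low Klf1 or with single cells left out.

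The mitotic set was present in these cells almost as a whole, but in very different amounts. Of the 40 genes, 37 (92.5%) were detected in at least 12 cells, called broadly detected, while 36.8% of the 16184 rows with any count were. Cks2, Bub3, Tacc3 and Hmgb2 were detected in all 24 cells. The 3 genes short of 12 cells were the kinesin Kif23 in 8 cells, and Cenpe and Ttk in 10 cells each. Without the 5 cells of low Klf1, 35 of the 40 passed a minimum lowered in proportion to the cells left.

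The share of a cell's counts that fell on the 40 genes had a median of 0.534% and a mean of 0.589% ± 0.312 (SD, n = 24 cells). It was lowest in cell 19 at 0.0960% (exact binomial 95% interval 0.0906 to 0.102), where 10 of the 40 genes were detected. The highest share was in cell 16 at 1.5% (1.49 to 1.52), where all 40 were detected. Most cells lay near the median, with a low tail of cells 19, 9, 10 and 3 and a high end of cells 16, 12, 23 and 18. The number of members detected in a cell followed the number of all genes detected in it (Spearman rho 0.70, Pearson r 0.68, r 0.51 without cells 19 and 3; n = 24 cells) more than its total counts (rho 0.43, r 0.44, r 0.34 without the same cells). Both measures of such a pair come from the same library, and the part of depth in the difference between cells was not tested.

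**Figure D1:**
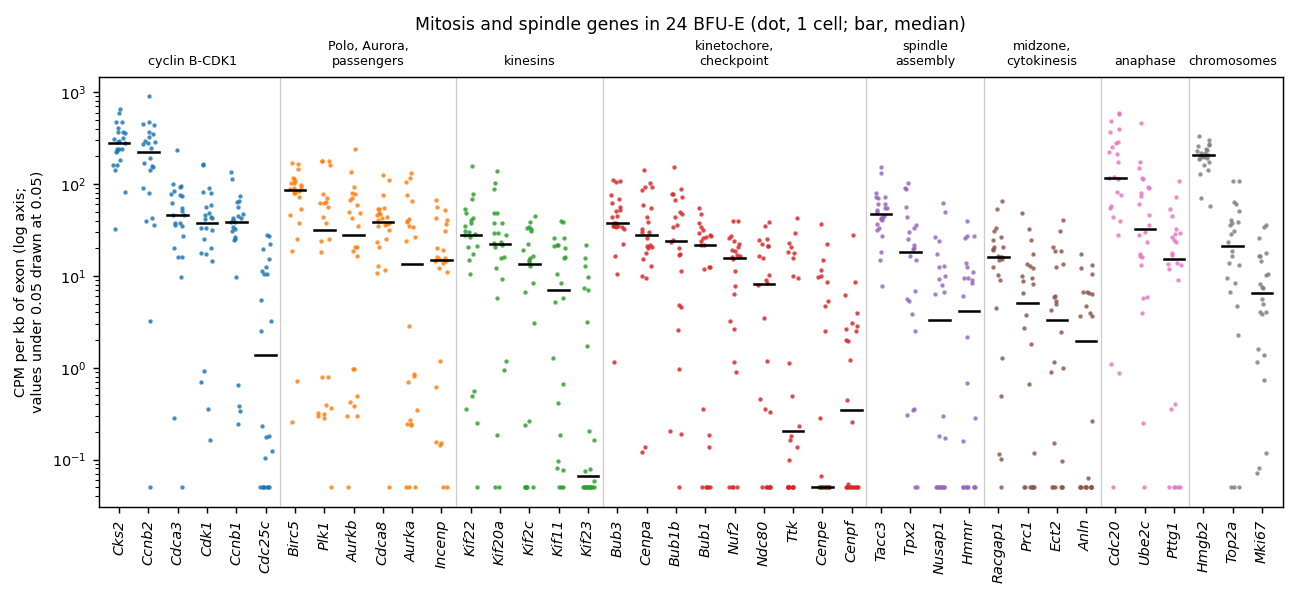
Level of each of the 40 genes in each of 24 cells, in CPM per kb of exon on a log axis, by function group; each dot is 1 cell, the bar is the median over cells, and values under 0.05 are drawn at 0.05. Cks2, Ccnb2 and Hmgb2 have the highest medians, and many genes show one cloud of cells above 1 and another at or near 0.

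Levels of different genes are compared per kb of merged exon, since Smart-seq2 reads spread along transcripts. Merged exon joins the exons of all annotated transcripts of a gene, used in these cells or not. The order of genes depends on that length, and no other length was tried. On that scale the set was led by Cks2 at 298 ± 151 CPM per kb, Ccnb2 at 241 ± 201, Hmgb2 at 204 ± 63.8 and Cdc20 at 191 ± 182 (mean ± SD, n = 24 cells). The long kinetochore gene Cenpf was lowest at 2.65 ± 5.80 CPM per kb, with the kinesin Kif23 at 3.32 ± 5.97 and the cytokinesis gene Anln at 3.99 ± 5.06 next. For many genes the SD over cells was about as large as the mean, so neighbours in this order did not differ beyond their spread over cells. Cenpf was the single member whose mean rested on 1 cell by more than 1.5 times: it averaged 40.9 CPM over all cells and 24.0 CPM without cell 16.

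The 6 genes of the cyclin B and CDK1 engine were broadly detected and together took 0.117% ± 0.0701 of counts, and 11 cells had all 6. Cks2, a small CDK-binding subunit (ENSMUSG00000062248, GRCm38 chromosome 13, 51645232 to 51650660, plus strand), ran from 22.7 CPM in cell 19 through a median of 196 to 458 CPM in cell 12. Its range was narrow for this set, and the dots of all but a few cells lie close together. Ccnb2, a cyclin B, ran from 0 in cell 19 through a median of 339 to 1381 CPM in cell 23. Cdca3, a trigger of mitotic entry, ran from 0 in cell 9 through 131 to 669 CPM in cell 12, the last well above the next cell at 284 CPM. The cyclin Ccnb1 and the kinase Cdk1 stood at medians of 164 and 184 CPM and were each detected in 20 cells. Both were under 5 counts in cell 19, and their other gaps were in different cells. For example, cell 9 had 451 CPM of Cdk1 and 1.42 CPM of Ccnb1, while cell 23 had 238 CPM of Ccnb1 and 4.56 CPM of Cdk1. Cdc25c, the phosphatase that activates CDK1, was the thinnest of the group, detected in 12 cells at up to 137 CPM.

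Among the Polo and Aurora kinases and the chromosomal passenger complex, which corrects faulty attachments, the passenger subunits were more even over cells than the kinases. Birc5 (survivin) ran from 0.880 CPM in cell 3 through a median of 294 to 577 CPM in cell 15. Plk1, the Polo kinase (ENSMUSG00000030867, chromosome 7, 122159439 to 122169873, plus strand), ran from 0 in cell 2 through 69.2 to 392 CPM in cell 18. Aurkb, the Aurora kinase of the complex, ran from 0 in cell 19 through 82.4 to 708 CPM in cell 12. Plk1 was split: 15 cells had it detected, and the others lay at or under 2 CPM, with little in between. Cdca8 (borealin) was detected in 23 cells with a median of 202 CPM, the scaffold Incenp in 18 with 64.5 CPM, and Aurka, the Aurora kinase of the spindle poles, in 13 with 34.1 CPM. No gene of these 6 was detected in cell 19, and 9 cells had all 6.

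Of the 5 kinesins, 4 were broadly detected. Kif22, a motor on chromosome arms (ENSMUSG00000030677, chromosome 7, 127027729 to 127042471, minus strand), ran from 0 in cell 19 through a median of 138 to 763 CPM in cell 18. Kif20a, which carries the passenger complex to the midzone, ran from 0 through 96.8 to 608 CPM in cell 23. Kif2c, which takes microtubules apart at the kinetochore, ran from 0 in 6 cells through 59.0 to 194 CPM in cell 16. Kif22 in cell 18 was well above the next cell, at 378 CPM, while Kif2c had no cell far from the others. Kif11, the motor that pushes the spindle poles apart, had a median of 52.2 CPM and reached 297 CPM in cell 12. Kif23, the motor of the central spindle, had 0 counts in 11 cells and reached 170 CPM in cell 23. Cells 3 and 19 had none of the 5 kinesins detected, and 5 cells had all of them.

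Of the 9 genes of the kinetochore and the spindle checkpoint, 7 were broadly detected, and 3 cells had all 9. Bub3, a checkpoint protein, ran from 8.10 CPM in cell 19 through a median of 264 to 769 CPM in cell 4. Cenpa, the histone H3 variant of centromeres, ran from 0.712 CPM in cell 9 through 163 to 840 CPM in cell 23. Bub1b, a part of the mitotic checkpoint complex, ran from 0 in cell 10 through 103 to 655 CPM in cell 23. Bub3 was spread evenly over cells, whereas cell 23 stood alone at the top for both Cenpa and Bub1b. The checkpoint kinase Bub1 had a median of 94.5 CPM and was detected in 16 cells, and the microtubule-binding partners Ndc80 and Nuf2 had medians of 53.3 and 99.0 CPM in 16 and 20 cells. Ttk, the kinase that starts the checkpoint, and Cenpe, a kinetochore motor, had medians of 1.01 and 0.288 CPM and reached 212 CPM in cell 12 and 318 CPM in cell 16. Cenpf was detected in 13 cells.

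The spindle assembly factors were all broadly detected. Tacc3, which links spindle microtubules, ran from 27.3 CPM in cell 8 through a median of 168 to 544 CPM in cell 16, and no cell lacked it. Tpx2, the activator of Aurora A on the spindle, ran from 0 in 2 cells through 84.5 to 475 CPM in cell 23. Nusap1, which bundles microtubules, ran from 0 in 9 cells through 13.4 to 253 CPM in cell 12. The centrosomal protein Hmmr was detected in 14 cells, with a median of 22.3 CPM and 218 CPM in cell 16. Tacc3 was thus present in every cell, while Nusap1 and Hmmr were absent from many.

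Genes of the midzone and of cytokinesis had no member above 17.9 CPM per kb, the lowest top of the 8 groups. Racgap1, the partner of Kif23 in the central spindle, ran from 0 in cell 5 through a median of 113 to 459 CPM in cell 12. Prc1, which crosslinks midzone microtubules, ran from 0 in 7 cells through 42.1 to 399 CPM in cell 12. Ect2, which activates RhoA at the division plane, ran from 0 in 6 cells through 18.03 to 220 CPM in cell 20. The scaffold Anln was detected in 12 cells at up to 158 CPM, in cell 5. Cells 12 and 16 did not lead this group throughout: Ect2 and Anln both had 0 counts in cell 12.

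Of the 3 genes of anaphase control, Cdc20, the APC/C activator (ENSMUSG00000006398, chromosome 4, 118432901 to 118437352, minus strand), ran from 0 in cell 3 through a median of 219 to 1124 CPM in cell 16. Ube2c, the ubiquitin-conjugating enzyme of APC/C (ENSMUSG00000001403, chromosome 2, 164769898 to 164778822, plus strand), ran from 0 in cell 19 through 84.9 to 1204 CPM in cell 16. Pttg1 (securin), which restrains separase, ran from 0 in 5 cells through 30.7 to 214 CPM in cell 5. Cdc20 was high in several cells, with 1076 CPM in cell 6 and 909 CPM in cell 23, whereas the cell next to 16 in Ube2c, cell 12, had 456 CPM.

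Among the chromosome proteins, Hmgb2, a DNA-bending protein, varied least over cells relative to its mean, from 172 CPM in cell 19 through a median of 615 to 1013 CPM in cell 12. Top2a, the topoisomerase that untangles sister chromatids, ran from 0 in 3 cells through 189 to 970 CPM in cell 16, with cell 12 at 965 CPM. Mki67, which coats mitotic chromosomes, ran from 0.712 CPM in cell 9 through 65.0 to 359 CPM in cell 16. Cells 12 and 16 were the top pair for both Top2a and Mki67, while most cells lay close together for Hmgb2.

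**Figure D2:**
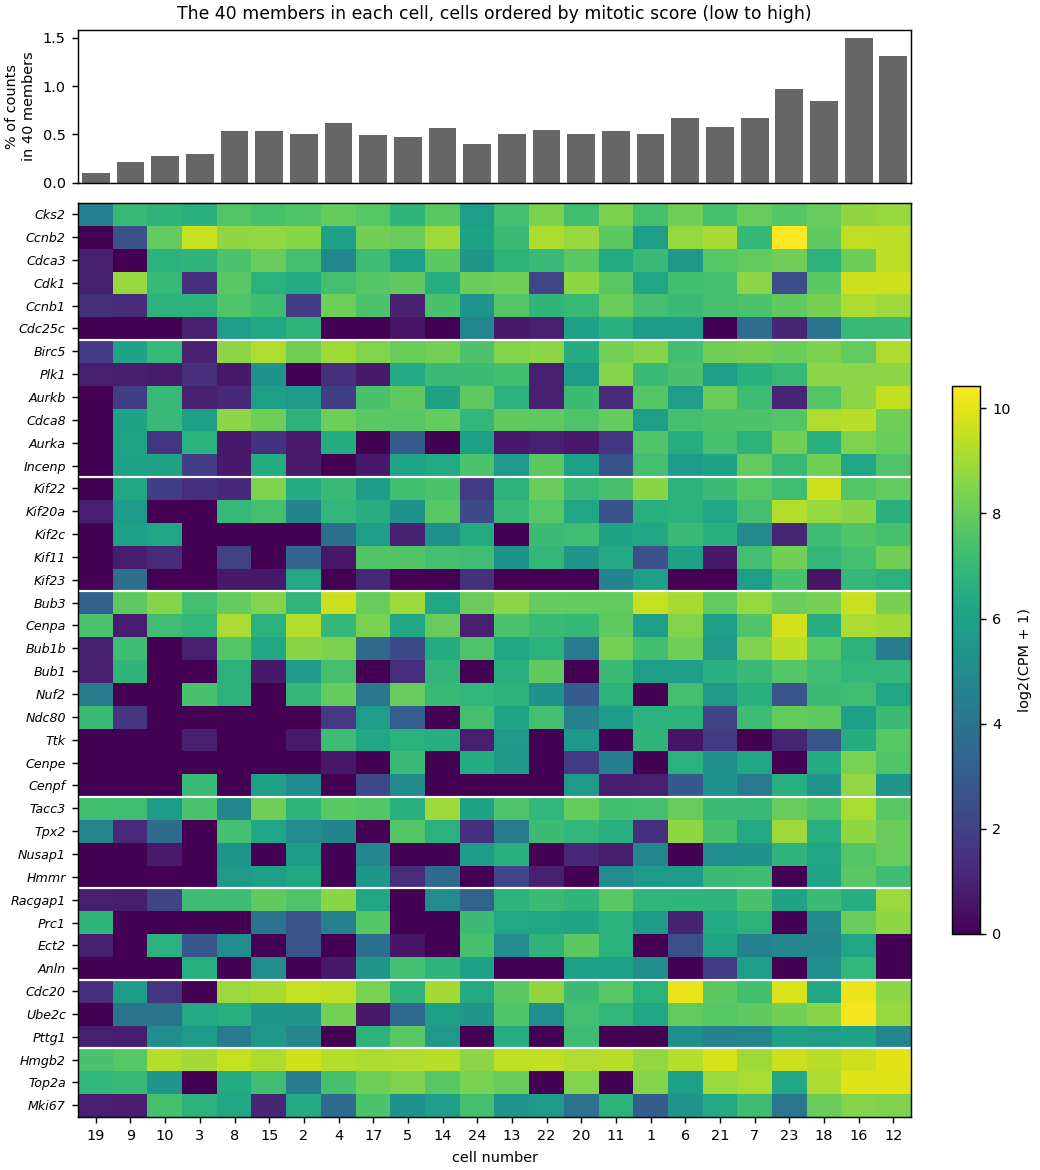
The 40 genes (rows, by function group) in each cell (columns, ordered by mitotic score from low to high), coloured by log2(CPM + 1), with the share of counts on the 40 genes above. The share is 0.0960% in cell 19 at the left and 1.31% and 1.5% in cells 12 and 16 at the right.

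A small number of cells carried most of the high values. To rank cells, a mitotic score was taken: the average log2(CPM + 1) of the 40 genes, each after subtracting the average of genes of similar abundance. It ran from -2.36 in cell 19, -1.95 in cell 9, -1.68 in cell 10 and -1.48 in cell 3 to 1.43 in cell 23, 1.57 in cell 18, 2.26 in cell 16 and 2.32 in cell 12. Cell 16 held the highest value of 12 members, cell 12 of 11 and cell 23 of 7, and the remaining 10 were spread over 6 cells. How often these cells held the highest value among all genes was not counted, so the counts describe the members only. Cell 16 had the most genes detected, 7349, and cell 23 had the lowest total, 876983 counts, and the fewest genes, 4767. Cells 12 and 16 had all 6 engine genes, all 6 kinase and passenger genes, all 5 kinesins and all 9 kinetochore genes detected.

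The high cells did not all carry the same members. Cell 18, the third by score, had 392 CPM of Plk1, 763 CPM of Kif22 and 579 CPM of Cdca8, but 74.2 CPM of Cdc20. Cell 23 had the highest Ccnb2, Cenpa, Kif20a and Bub1b of all cells, yet Cdk1 at 4.56, Aurkb at 1.14 and Cenpe at 0 CPM. Cell 22, near the middle by score, had 564 CPM of Ccnb2 and 237 CPM of Bub1 with 3.48 CPM of Cdk1 and 0 counts of Top2a. Among the low cells, cell 3 had 723 CPM of Ccnb2 and no kinesin, cell 9 had 451 CPM of Cdk1 and 4.98 CPM of Ccnb2, and the members at over 100 CPM in cell 19 were Cenpa, Ndc80, Tacc3, Prc1, Top2a and Hmgb2.

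Markers of other cell types varied among the same cells. Cells 12 and 16 had the highest sums of megakaryocyte markers, 1780 and 1582 CPM against a median of 281 and a lowest value of 16.04 CPM over the 24 cells, with 6 and 7 of the 10 markers detected. The next highest sums were in 2 of the lowest cells by score, 1424 CPM in cell 10 and 1073 CPM in cell 3. F2r alone stood at 738 and 634 CPM in cells 12 and 16, but it was detected in 22 cells and highest in cell 10 at 786 CPM. The defining platelet genes Pf4 and Ppbp were at 0 in every cell, and Itgb3 was at 0 in cells 12 and 16. Over all cells the mitotic score and the megakaryocyte sum had a rho of 0.059 (r 0.29, and r 0.015 without cells 12 and 19; n = 24 cells). The lymphoid sum was 0 at the median and highest in the lowest cell by score, cell 19. Its rho with the score was -0.49 (r -0.49, and r -0.57 without cells 12 and 19). Lymphoid markers were detected only in cells 1, 9, 10, 14 and 19, so these values rest on few cells. After cell 19 the highest sums were 91.8 CPM in cell 9 and 76.5 CPM in cell 10. In cell 19 Cd79a, Cd3e, Cd3g and Dntt were at 0, while Cd79b, Il7r, Rag1 and Rag2 stood between 169 and 261 CPM. Cell 23, the fourth by score, had the second highest myeloid sum, with 2 of 10 markers detected, and 6 of the 10, Elane among them, were at 0 in every cell. The myeloid sum and the score had a rho of -0.13 (r 0.061, and r 0.090 without cells 12 and 19). The part of these markers in the mitotic levels was not tested.

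Most pairs of members varied in the same direction across the 24 cells, though loosely. Over the 780 pairs of the 40 genes the mean Spearman rho was 0.26 (mean Pearson r 0.29), against 0.0076 over all pairs of the 8266 genes detected in at least 6 cells and 0.13 among the 53 genes of DNA replication and S phase. A rho above 0 was found in 689 pairs of members (88.3%), against 51.4% of pairs of all genes. A rho of at least 0.5 was found in 94 pairs (12.1%), against 0.955%. All pairs share the same 24 libraries, their depth and their scaling. Fitting out total counts and genes detected left a mean rho of 0.21, and thinning every cell to the total of the shallowest left 0.26.

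**Figure D3:**
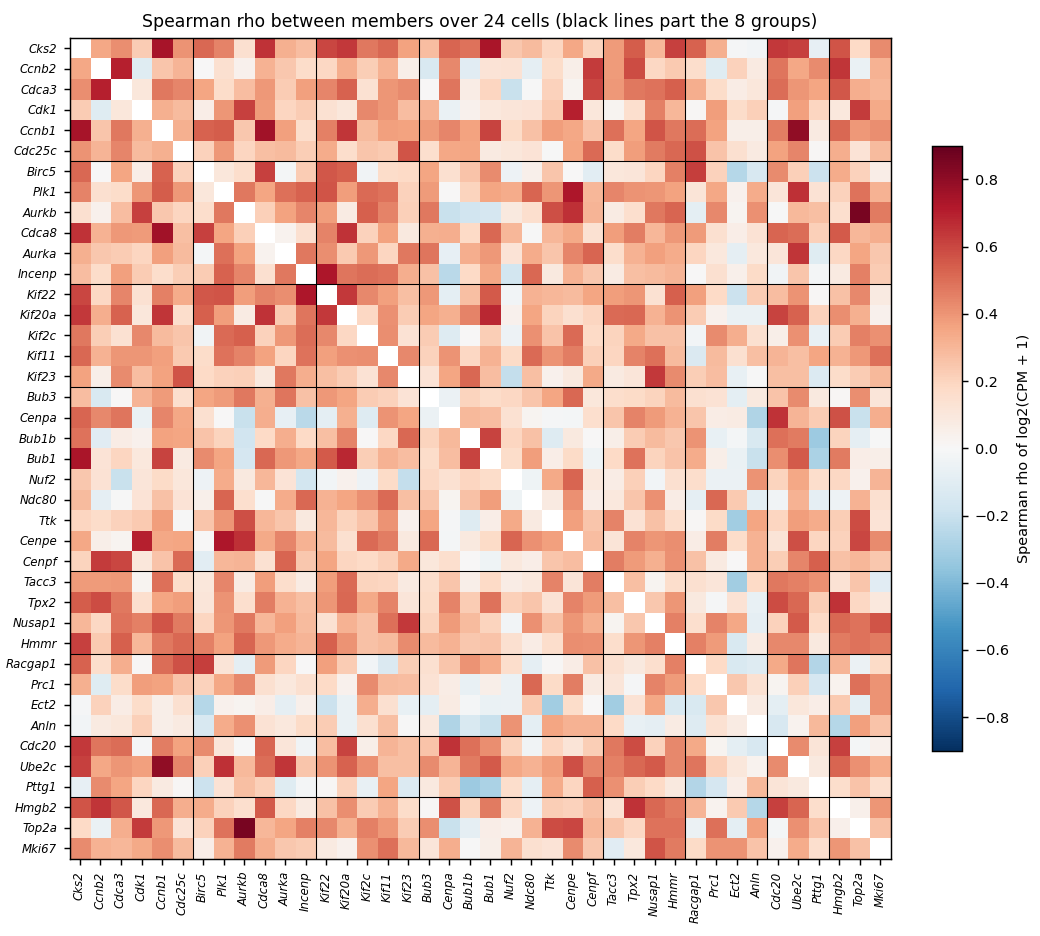
Spearman rho between each pair of the 40 genes over 24 cells (colour), with black lines between the 8 function groups. Most pairs are above 0, from -0.33 for Bub1b with Pttg1 to 0.85 for Aurkb with Top2a, and the blocks on the diagonal are no darker than the rest.

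The 3 strongest pairs joined genes of different function groups: Aurkb with Top2a had a rho of 0.85, Ccnb1 with Ube2c 0.80 and Ccnb1 with Cdca8 0.75. Ccnb1 with Cks2, both of the engine, had 0.74, and Cks2 with Bub1 had 0.74. Cenpe paired with Plk1 at 0.73 and with Cdk1 at 0.70. Pairs of the same function group averaged a rho of 0.25 over 94 pairs, and pairs of different groups 0.26 over 686. The kinesins and the engine genes held together best within their groups (mean rho 0.35 each), and the midzone and cytokinesis genes least (0.064 within, 0.13 with the other members). The lowest pairs were Bub1b with Pttg1 at -0.33, Tacc3 with Ect2 at -0.32 and Ttk with Ect2 at -0.31.

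The co-variation differed with the cells included. The mean rho was 0.17 without cells 12 and 16, 0.16 without cells 3, 9, 10 and 19, and 0.041 without all 6. These cells were picked by their score, a choice that by construction lowers any correlation among the members. Without the 5 cells of low Klf1 it was 0.22, and leaving out single cells gave 0.21 to 0.27. The cells sat in 3 plate columns of 8, which the wells named in the labels give, and the mean rho was 0.39 in column 1, 0.015 in column 2 and 0.32 in column 3. Column 2 held none of the 6 end cells, and its share of counts on members ran from 0.476% to 0.973%, against 0.0960% to 1.5% in column 1 and 0.210% to 1.31% in column 3.

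Each gene was then compared with the mitotic score, a member being left out of the score it was compared with. All 40 members had a rho above 0, while 3312 of all 5962 broadly detected genes did. The 37 broadly detected members had a median of 0.46, against 0.032 over the 5962. Without the 5 cells of low Klf1, the median was 0.34 with 33 of 35 members above 0, and in plate column 2 it was 0.071 with 23 of 37 above 0. Without the 6 end cells, again a choice made on the score, it was 0.14 with 28 of 37 above 0. The medians over all genes tested were 0.014 without the cells of low Klf1, -0.048 in plate column 2 and -0.011 without the end cells. The share of all genes above 0 was not taken in these settings. Over all 24 cells, of the 37, 6 (16.2%) reached 0.6, called following the score, as did 0.369% of all 5962 genes. They were Ube2c (rho 0.75), Plk1 (0.73), Cks2 (0.64), Kif22 (0.62), Kif2c (0.61) and Ccnb1 (0.60), with Kif11 just under the threshold (0.5997). No member was at or below -0.6, as 0.0671% of all genes were. Nuf2 (0.069), Pttg1 (0.071), Ect2 (0.15), Anln (0.16) and Cenpa (0.16) were nearly unrelated to the score of the others. The count of 6 was 3 of 35 without cells 12 and 16, 3 of 37 with DESeq2 size factors and 8 of 37 with TMM scaling. Of all genes tested, 0.489%, 0.235% and 0.419% followed in these settings. Leaving out single cells gave 2 of 34 without cell 18 up to 9 of 37 without cell 22, against 0.399% and 0.498% of all genes tested.

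The members also varied more than genes of their abundance usually did. Of the 40, 15 (37.5%) were among the 500 genes with the largest variance of log2(CPM + 1) above the trend on the mean, which are 6.05% of the 8266 genes ranked, and 7 of the 53 S phase genes (13.2%) were. Top2a ranked 21, Cdc20 23, Ccnb2 82 and Plk1 120. At the steady end Cks2 ranked 5999 and Tacc3 6243, both detected in all 24 cells.

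Promoter sequence was not used to choose the set. The 6 promoters printed here, shown so that both ends of the co-variation can be read side by side, are those of the 4 members with the highest rho with the score of the others and the 2 broadly detected ones with the lowest, in a RefSeq table on GRCm38.p6 that gives 250 bases before to 50 bases after each annotated start. Capitals mark the CHR element (cell cycle genes homology region, searched as TTTGAA or TTTAAA) and the CCAAT box, each on either strand, so that TTCAAA and ATTGG are their reverse complements. Ube2c is at chr2:164769679-164769978 (plus strand), Plk1 at chr7:122159185-122159484 (plus), Cks2 at chr13:51644982-51645281 (plus), Kif22 at chr7:127042371-127042670 (minus), Pttg1 at chr11:43425932-43426231 (minus) and Nuf2 at chr1:169531415-169531714 (minus).
Ube2c: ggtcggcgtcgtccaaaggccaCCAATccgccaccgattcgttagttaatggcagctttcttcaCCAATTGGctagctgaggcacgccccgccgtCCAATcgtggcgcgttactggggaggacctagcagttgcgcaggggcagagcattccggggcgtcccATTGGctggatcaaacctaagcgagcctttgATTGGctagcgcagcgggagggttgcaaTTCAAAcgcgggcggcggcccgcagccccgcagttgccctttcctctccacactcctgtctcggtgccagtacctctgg
Plk1: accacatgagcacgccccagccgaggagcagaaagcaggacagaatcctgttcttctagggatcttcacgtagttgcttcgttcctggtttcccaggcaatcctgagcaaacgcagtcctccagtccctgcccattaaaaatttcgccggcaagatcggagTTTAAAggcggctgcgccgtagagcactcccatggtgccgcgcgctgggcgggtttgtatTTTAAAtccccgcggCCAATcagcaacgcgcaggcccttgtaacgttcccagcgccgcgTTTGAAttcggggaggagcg
Cks2: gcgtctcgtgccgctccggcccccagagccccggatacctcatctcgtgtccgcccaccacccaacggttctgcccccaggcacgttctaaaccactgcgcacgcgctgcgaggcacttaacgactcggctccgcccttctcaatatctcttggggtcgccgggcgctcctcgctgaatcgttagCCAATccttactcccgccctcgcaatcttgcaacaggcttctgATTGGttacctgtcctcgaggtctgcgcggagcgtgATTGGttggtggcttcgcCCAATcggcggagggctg
Kif22: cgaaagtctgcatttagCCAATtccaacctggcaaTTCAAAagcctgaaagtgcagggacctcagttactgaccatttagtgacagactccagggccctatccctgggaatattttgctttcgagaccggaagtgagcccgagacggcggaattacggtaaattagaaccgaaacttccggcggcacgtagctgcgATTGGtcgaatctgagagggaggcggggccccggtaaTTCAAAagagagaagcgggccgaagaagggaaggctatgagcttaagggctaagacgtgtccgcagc
Pttg1: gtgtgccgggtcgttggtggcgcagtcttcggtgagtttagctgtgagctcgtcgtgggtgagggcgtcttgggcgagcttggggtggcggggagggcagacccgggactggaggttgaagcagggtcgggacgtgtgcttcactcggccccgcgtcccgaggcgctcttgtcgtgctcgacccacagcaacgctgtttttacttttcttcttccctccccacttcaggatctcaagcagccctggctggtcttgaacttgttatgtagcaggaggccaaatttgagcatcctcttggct
Nuf2: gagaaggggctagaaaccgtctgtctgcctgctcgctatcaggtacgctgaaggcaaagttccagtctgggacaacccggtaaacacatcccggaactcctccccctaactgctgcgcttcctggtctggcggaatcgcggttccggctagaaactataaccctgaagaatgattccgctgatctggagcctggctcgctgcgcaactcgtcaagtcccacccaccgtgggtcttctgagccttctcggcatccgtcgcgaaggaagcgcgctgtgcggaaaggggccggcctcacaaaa

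In Ube2c the CHR begins 29 bases before the start, with 6 CCAAT matches upstream of it, of which 1 pair overlaps. Plk1 holds 3 CHR matches, 89 and 29 bases before and 30 bases after the start, with a CCAAT 14 bases before it. Kif22 has a CHR 17 bases and a CCAAT 54 bases before the start, and a second match of each further upstream. Cks2 has 4 CCAAT matches and no CHR of these letters. Neither motif is in the windows of Pttg1 and Nuf2, the 2 members least related to the score. The Pttg1 window lies inside the gene as annotated in GENCODE M21 (chromosome 11, 43420250 to 43426251, minus strand). Bases upstream of that gene start were therefore not searched. The same holds for Kif2c, Cdca8 and Cdca3, whose windows also lie inside the annotated genes and each hold a CHR. Nusap1, with a rho of 0.57, and Tacc3, with 0.35, also have neither motif. Birc5, with a rho of 0.24, has a CHR 220 bases before the start and no CCAAT. Cenpa, at 0.16, holds both motifs, as do Ect2 (0.15) and Racgap1 (0.20).

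Of the 40 members, 35 were in the promoter table, and Kif20a, Incenp, Aurkb, Tpx2 and Cdc25c were not. A CHR was in 29 of the 35 (82.9%), against 25.0% of 40 S phase genes, 22.2% of the other 4602 broadly detected genes and 30.6% of all 27025 genes in the table. Within 50 bases of the start the shares were 74.3%, against 17.5%, 5.89% and 9.54%. A CCAAT box was in 77.1% of members, against 57.5%, 42.7% and 41.1%, and both motifs together in 71.4%, against 15%, 10.1% and 13.4%. The E2F site of S phase promoters, searched as TTCCCGC or TTGGCGC on either strand, was in 11.4% of members, against 57.5% of S phase genes, 17.4% of the other broadly detected genes and 7.79% of all genes in the table. The CHR share of the members was thus above that of each other set, and their E2F share below that of the S phase genes. A match is a run of letters and does not show that a factor binds, and the windows follow the annotated starts, which may differ from those used in these cells. For 33 of the 38 member starts in the table, the last 30 bases of the window were in a GENCODE M21 transcript of the gene.

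**Figure D4:**
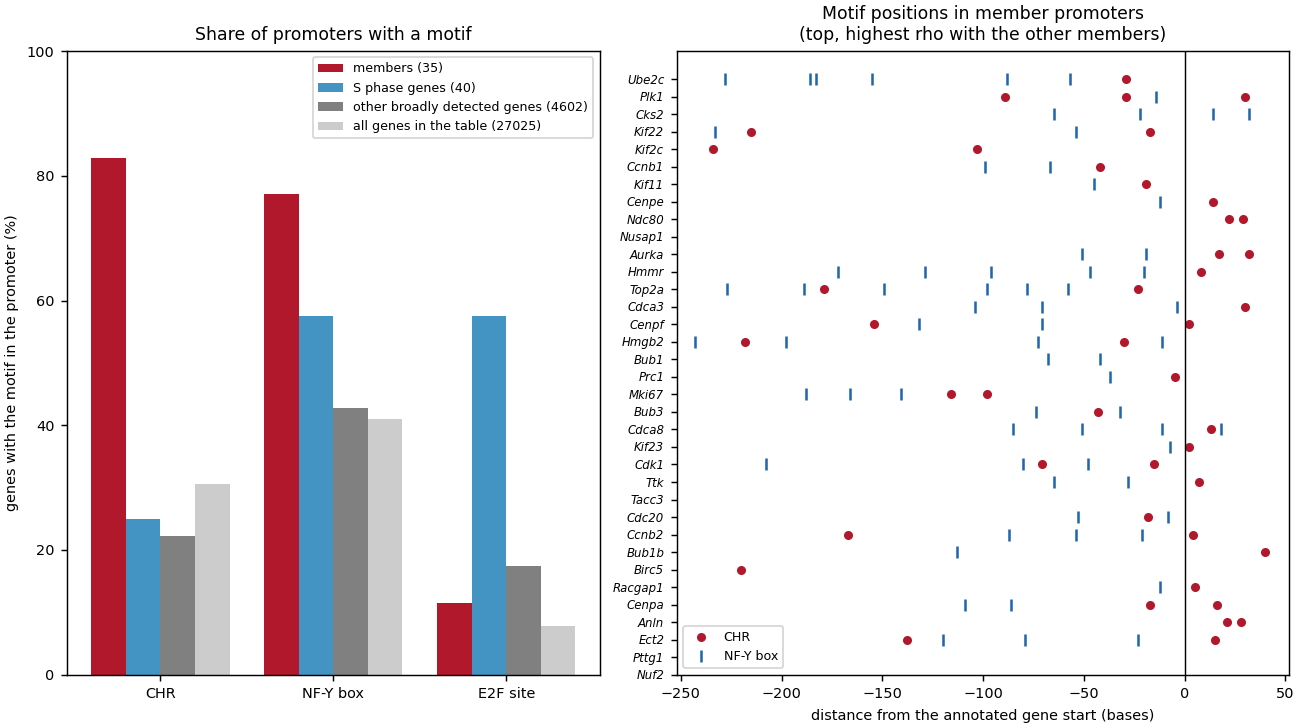
Left, share of promoters with a CHR, a CCAAT (NF-Y) box or an E2F site among 35 members, 40 S phase genes, 4602 other broadly detected genes and all 27025 genes of the table. Right, positions of CHR (dots) and CCAAT (ticks) in bases from the annotated start for the 35 members, ordered by rho with the score of the others; most CHR dots lie close to the start, and Tacc3, Nusap1, Pttg1 and Nuf2 have no match of either kind.

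Cells with high mitotic scores tended to have low scores for S phase, the stage of DNA copying. A score over 53 replication genes, made the same way, had a rho of -0.50 with the mitotic score (r -0.55, and r -0.50 without cells 12 and 19; n = 24 cells). Cell 12 had 2.32 for mitosis and -1.30 for S phase, cell 16 had 2.26 and -1.11, while cell 9 had -1.95 and 0.68, and cell 10 had -1.68 and 0.72. Cell 22 was lowest for S phase at -1.38 with a mitotic score of 0.020, and cell 19 was low for mitosis with an S phase score of 0.042. Pairs of a member and an S phase gene averaged a rho of -0.081 over 2120 pairs.

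**Figure D5:**
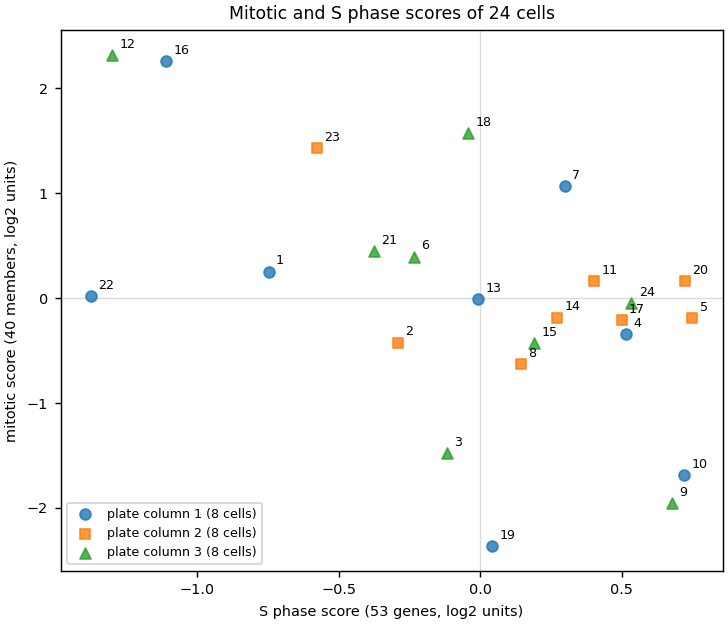
Mitotic score (40 genes) against S phase score (53 genes) in 24 cells, both in log2 units relative to genes of similar abundance, with cells numbered and marked by plate column. Cells 12 and 16 lie at the upper left and cells 9 and 10 at the lower right.

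The relation depended on the cells and on the score. It was -0.35 without cells 12 and 16, -0.34 without cells 12, 16 and 22, -0.41 without the 5 cells of low Klf1, and -0.54 to -0.43 when single cells were left out. Within plate columns of 8 cells it was -0.38, 0.095 and -0.64, so it was not seen in column 2. A plain mean of log2(CPM + 1), with no mean of similar genes subtracted, gave -0.14.

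Taken singly, 32 of the 37 broadly detected members (86.5%) had a rho below 0 with the S phase score, against 48.6% of 5873 other genes, with medians of -0.34 and 0.0070. The lowest were Hmgb2 at -0.55, Hmmr at -0.50 and Ccnb2 at -0.49. The 5 members above 0 were Anln (0.30), Cdk1 (0.29), Pttg1 (0.13), Ect2 (0.048) and Aurkb (0.018).

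Outside the set, 16 genes followed the mitotic score. The highest were Mad2l1bp (rho 0.78), which silences the spindle checkpoint by binding MAD2, and Zfp207 (0.71), a partner of BUB3. Mad2l1bp ran from 0 through a median of 25.1 to 182 CPM and was detected in 13 cells, and Zfp207 ran from 16.2 through 405 to 918 CPM in all 24. The next were Lin28b (0.70), an RNA-binding repressor of let-7 microRNAs, Cstf1 (0.70), of mRNA 3' end cleavage, Tubb4b (0.67), a beta-tubulin, and Acer3 (0.66), a ceramidase. Katnbl1 (0.65), a regulator of the microtubule-severing enzyme katanin, Gps1 (0.64), of the COP9 signalosome, and Pcnx3 (0.64) came after them. Of these, Lin28b was detected in 12 cells, the minimum, and its median of 3.14 CPM lay within the range of the floors. It passed the minimum in 12 of the 24 settings that left out 1 cell. Among the genes that ran against the score were Idh2 (-0.67), a mitochondrial isocitrate dehydrogenase, Srp9 (-0.62), of the signal recognition particle, and Smim10l1 (-0.60). The next lowest were the splicing factor Srsf1 (-0.59) and the translation factor subunit Eif3f (-0.58). Of the 22 genes that followed the score, members included, 9 also did so without cells 12 and 16, and 9 without the 5 cells of low Klf1.

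Other genes of the same machinery were mostly present but tracked the score less closely. In 6 further lists, 111 of 147 genes were broadly detected, against 36.8% of all rows with any count. These 111 had a median rho of 0.20, and 1 of them, Tubb4b, followed the score, against 0.369% of all genes. All 17 APC/C genes were broadly detected, led by Anapc5 at 728 ± 273 CPM, Cdc16 at 171 ± 97.5 and Cdc23 at 164 ± 93.1, with a median rho of 0.18. Anapc4 (0.48) and Anapc1 (0.46) were the closest to the score. Condensin and cohesin, which compact and hold chromatids, had 16 of 18 genes broadly detected and a median rho of 0.22. Ncaph2 stood at 260 ± 129 CPM, Smc3 at 249 ± 126 and Smc4 at 205 ± 118, and Smc1a (0.45) and Smc4 (0.43) had the highest rho.

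Of 38 other centromere and kinetochore genes, 34 were broadly detected, with a median rho of 0.12. Zwint was at 333 ± 202, Pmf1 at 220 ± 85.9 and the checkpoint effector Mad2l1 at 182 ± 157 CPM, and Spc25 (0.56), which joins Ndc80 and Nuf2 in 1 complex, and Knstrn (0.47) had the highest rho. Of 20 other mitotic kinases, phosphatase regulators and cyclins, 15 were broadly detected, with a median rho of 0.28. Cks1b stood at 436 ± 166, cyclin A2 (Ccna2) at 328 ± 167 and Arpp19 at 174 ± 85.8 CPM, with Melk (0.56) and the Plk1 activator gene Bora (0.54) closest to the score. Of 31 other spindle and cytokinesis genes, 17 were broadly detected, with a median rho of 0.30, the highest of the 6 lists. Tubulin led it, with Tubb5 at 2828 ± 809, Tuba1b at 994 ± 251 and Tubb4b at 893 ± 469 CPM, and Arl6ip1 (0.54) came after Tubb4b in rho.

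A further list held 23 regulators of cell cycle promoters: genes of the DREAM complex, B-MYB, FOXM1 and NF-Y, with the E2F and retinoblastoma families. Of these, 12 were broadly detected, with a median rho of 0.0091. Foxm1 was detected in 7 cells at 14.9 ± 26.7 CPM, and Mybl2 in 21 cells at 118 ± 107 CPM with a rho of 0.28, the highest of the list. Tfdp1 at 353 ± 179, Rbbp4 at 242 ± 91.0 and E2f4 at 191 ± 117 CPM were the most counted, with rho of 0.015, 0.0035 and 0.17, and Nfyc had 0.25. The S phase list had 52 of 53 genes broadly detected with a median rho of -0.13. Mcm6 at 1151 ± 472, Mcm3 at 701 ± 270 and Mcm7 at 683 ± 278 CPM led it, with rho of -0.40, -0.36 and -0.16, and Cdc45 (0.38) and Tyms (0.29) were the highest.

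Some member counts are less certain because reads were counted without strand information. In the annotation 29.3% of the exon bases of Kif20a overlap Cdc23, 22.8% of Ube2c overlap Tnnc2, 12.7% of Cdc25c overlap Gm3550 and 11.1% of Prc1 overlap Rccd1. The sources used here do not say how such reads were counted. Near-identical copies were found for Ccnb1, Hmgb2, Ndc80 and Racgap1. Among the copies with counts, the largest share was 309 counts on 2700099C18Rik, a copy of Ndc80, which is 12.5% of the 2467 counts of that gene. No counts were available for Gm7483 and Gm8416 of Ccnb1, Gm4739 of Hmgb2 and AC148020.1 of Racgap1, so their share is unknown.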

How the data were processed

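Single-cell RNA was measured in 24 cells of 1 group, in wells of 3 plate columns of 8 cells. The deposited table holds the authors' raw read counts per Ensembl gene, used as deposited. Per the submitters' processing notes, STAR 2.4, featureCounts and the build GRCm38 were used. Which annotation release was counted, how reads that map to several places were handled and whether cells were filtered is not given in the sources used here. Of 49585 rows, 49326 matched a symbol in GENCODE M21, which also gave coordinates and exon lengths. No doublet caller was run, since cells were sorted singly.

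Counts were divided by the cell's total to give CPM and analysed as log2(CPM + 1). A gene was detected at 5 counts, kept at 6 cells and broadly detected at 12. Where cells were left out or a plate column was taken alone, both minimums of cells were lowered in proportion and rounded up. Scores subtract from each gene the average of its bin, with 20 bins of mean expression, and the variance trend is a lowess fit with a span of 0.3. A gene followed the score at a rho of at least 0.6 and ran against it at -0.6. Correlations across cells are descriptions, and cells are not replicates. Near copies were sought with blastn 2.17.0 at 95% identity over 300 bases. edgeR 4.0.16 and DESeq2 1.42.0 gave only alternative scalings. Python 3.11.15, scipy 1.17.1 and statsmodels 0.14.6 were used, and the statistics were tested on simulated data. PCR reads without molecular identifiers are not independent molecules, so intervals and floors cover counting error only.

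Per-cell ranges are given for the 3 members of each function group with the highest mean CPM per kb and, in shorter form, for the others. Other genes named are the 10 with the highest and the 5 with the lowest rho with the score, passing over predicted models, pseudogenes and unnamed IDs, and of each further list the 3 highest by mean CPM and the 2 highest by rho. Some genes that these rules name are not reported here. Foxm1 was named after its values were seen. The members, lists and rules were chosen with earlier results of these data known. Alternatives cover scaling, thinning, detection, thresholds, cells left out, plate columns and promoter windows.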

Additional observations from a re-analysis of the deposited data

How the results depend on the processing

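Without 1 of the 24 cells at a time, 34 to 37 members were broadly detected, their share of counts was 0.550% to 0.611%, their mean rho was 0.21 (without cell 16) to 0.27, and the rho of the mitotic with the S phase score was -0.54 to -0.43. The count of genes following the mitotic score was 14 (without cell 19) to 32 (without cell 23), that of genes running against it 5 to 12 (without cell 16), and that of members following the others 2 (without cell 18) to 9 (without cell 22), against 22, 4 and 6 with all cells. With DESeq2 size factors 14 genes (0.235% of those tested) and 3 of 37 members followed, and with TMM 2 genes ran against the score. Without the 5 cells of low Klf1, 41 followed and 14 ran against it. At a rho of 0.5, 95 of 5962 genes (1.59%) followed, 47 ran against the score and 16 of 37 members followed. Without cells 12 and 16, 3 of 35 members followed, against 0.489% of all genes tested. The score relation was -0.35 without these cells and -0.34 without cells 12, 16 and 22. It was -0.14 with a plain mean score and -0.38, 0.095 and -0.64 within plate columns 1 to 3. The mean rho of members was 0.39 in column 1, 0.015 in column 2 and 0.041 without cells 3, 9, 10, 12, 16 and 19. A CCAAT box was in 54.3% of member promoters within 50 bases of the start. The cause of these shifts was not tested. Of the other values of these results under alternatives, 201 moved by less than 0.1 in rho, 1 SD or 1.5 times, and of the rho values of the 15 genes chosen by the naming rule 438 moved by less than 0.1 and 14 by more. The settings that leave out cells 12 and 16, cells 3, 9, 10 and 19, all 6 of these, or cells 12, 16 and 22, and the window of 50 bases, were chosen after seeing the data. No paired analysis was possible because there is 1 group. With 24 cells of 1 sample, levels near 1 count and weak correlations cannot be read, and nothing here extends to other embryos.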
